A study of Homo sapiens with 15 samples.

Results

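The genes for fibrillin, fibronectin and 7 other secreted glycoproteins of the extracellular matrix were followed across the doses of ZJ-101, a synthetic compound made as a simpler form of superstolide A, a natural product of a sponge. The members were FBN1, FN1, FBLN1, THBS1, TGFBI, HSPG2, AGRN, VWA1 and OLFML2A, 9 of the 59608 genes in the deposited table, found by their symbols. They are matrix proteins that are neither collagens nor laminins. VWA1 and OLFML2A were chosen by their readout, since their RNA fell strongly in these same libraries, and VWA1 is also a gene that the study names from them, so their values are given as a description with no test. The other 7 were taken for what they encode, with earlier results for some of them known. The breast cancer line MDA-MB-231, of human origin, was grown in 2D culture and treated for 6 h with 0.1% DMSO as vehicle or with ZJ-101 at 0.5, 5, 50 or 500 nM. Each of the 5 groups held 3 dishes, which the labels of the treated groups call biological replicates. The line carries no engineered allele in the labels, and the compound and its dose are the only difference between groups that they give. The values are counts of poly-A RNA per gene divided by a size factor of the library, called normalized counts here, and recovered reads on genes numbered 12415519 to 15284762 per library. In bulk RNA, fewer cells with a transcript and less transcript per cell cannot be told apart.

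The extracellular matrix is the network of secreted proteins that surrounds cells and to which they attach. Fibronectin and fibrillin assemble into fibrils outside the cell, and cells grip fibronectin through integrins at the cell surface. Thrombospondin and the TGF-beta-induced protein are adhesive proteins that bind to this network, while perlecan and agrin are heparan sulfate proteoglycans of basement membranes. All of these proteins pass through the ER and the Golgi, where they are folded, bridged by disulfide bonds and glycosylated, before they are secreted. MDA-MB-231 cells are mesenchymal in character and make much of this matrix themselves.

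The line's own markers were abundant. VIM had a median of 14366 normalized counts over the 15 libraries, CD44 11256 and EGFR 5174, while of the genes low in this line the hormone receptor genes ESR1 and PGR were at 0 to 4.30 and 5.37 to 17.3, and CDH1, the gene of E-cadherin, was at 107 to 206. The sum of these last 3 was 199.9 to 215 in DMSO, 117 to 145 at 0.5 nM and 137 to 167 at 500 nM. Markers of fibroblasts, which also make this matrix, were at or near 0 for COL3A1, DCN, LUM and PDGFRA (at most 5.32), with COL1A1 between 165 and 224 and PDGFRB between 29.0 and 61.7. The sum of the 6 fibroblast markers was 256 to 288 in DMSO, 218 to 233 at 0.5 nM and 229 to 234 at 5 nM, both wholly below DMSO, 253 to 261 at 50 nM and 223 to 281 at 500 nM. The sum of 3 endothelial markers went from 240 to 293 in DMSO to 204 to 230 at 500 nM, nearly all of it PECAM1, and that of 3 leukocyte markers from 28.4 to 30.8 to 10.2 to 15.2, mostly CD14. VWF, CDH5, PTPRC and CD68 were at 3.53 or below in every library. The part of these markers in the results was not tested.

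1 library stood apart from its group by transcript length, which touches FBN1, FN1 and HSPG2, the 3 members with transcripts over 8000 bases. In 0.5 nM replicate 2, genes with a transcript over 8000 bases were lower than in the other 2 libraries of the group by a median of -0.308 on the log2 scale (1116 genes), and genes under 2000 bases were higher by 0.164 (3285 genes). In the other 14 libraries the median of the long genes lay between -0.097 and 0.193. In that library 7 of the 9 members were lower than in the rest of the group, a count that DMSO replicate 3 and 500 nM replicate 3 exceeded (8 of 9 each). The median deviation of the members was -0.161 there and -0.047 and -0.078 in those 2 libraries. In 0.5 nM replicate 2 the lowest were HSPG2, by -0.748, FN1 by -0.611, FBN1 by -0.534 and OLFML2A by -0.526. Differences at 0.5 nM that moved with it are given with and without it, and the part of transcript length in the differences was not tested beyond a fit with the length trend removed.

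**Figure D1:**
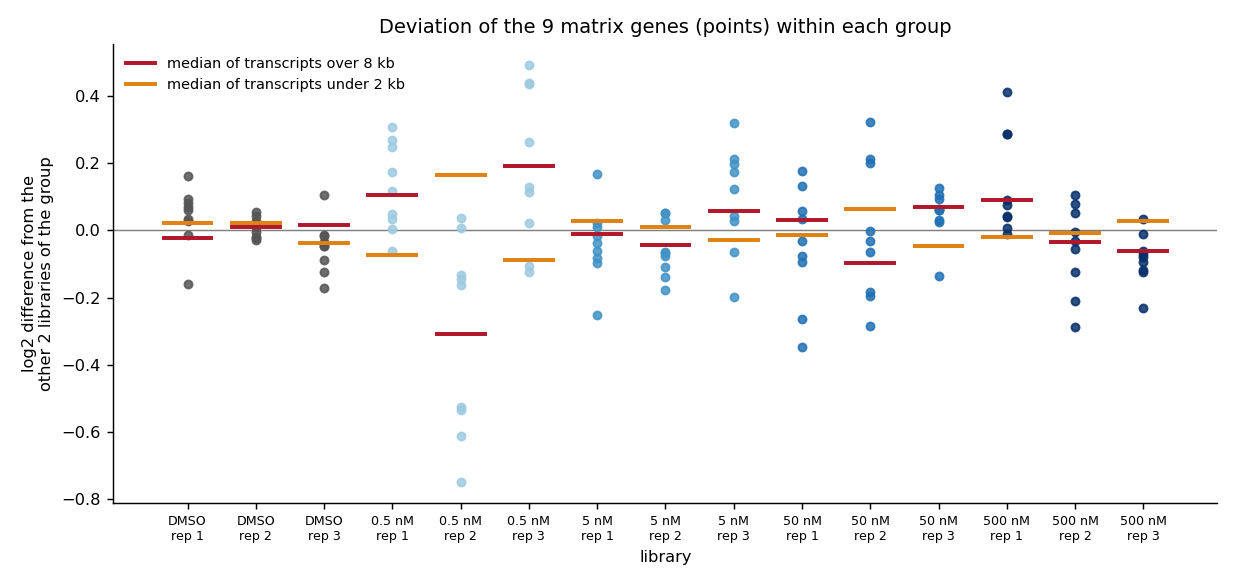
Each point is 1 of the 9 matrix genes in 1 library, plotted as its log2 difference from the mean of the other 2 libraries of its group. Red and orange lines mark the median of all tested genes with transcripts over 8 kb and under 2 kb, and they are farthest apart in 0.5 nM replicate 2, where 7 of the 9 points lie below 0.

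Per length of transcript, AGRN was the most abundant of the 9 in DMSO, with 1516 ± 17.4 normalized counts per kb (SD, n = 3 for each of these values). THBS1 followed with 1231 ± 35.3 and FN1 with 1146 ± 88.0, and the libraries of these last genes overlapped. TGFBI had 730.1 ± 10.0 per kb, VWA1 229.6 ± 9.61, HSPG2 134 ± 8.55 and FBN1 82.3 ± 4.10. OLFML2A with 50.2 ± 1.24 and FBLN1 with 42.1 ± 0.796 were the least abundant. At 500 nM the order was another, with FN1 at 1219 ± 148, AGRN at 988 ± 45.8, THBS1 at 644 ± 21.7 and OLFML2A last, at 10.5 ± 0.281 normalized counts per kb. The lengths are those of the canonical transcripts in GENCODE, and the isoforms that these cells use were not measured.

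To show the control regions of genes that behaved in different ways, the bases upstream of the gene are printed for FN1, which did not change detectably, THBS1, which fell at the highest dose, and OLFML2A, which was lower from the lowest dose on. They were taken from RefSeq promoters on GRCh38.p14, in which 8 of the 9 members were found, and cut where GENCODE exons of the gene begin. Capitals mark matches on either strand to TGACGTCA (the cyclic AMP response element), CCAAT (which on the opposite strand reads ATTGG) or GGAATG (bound by TEAD factors).
FN1, chr2:215436074-215436318, minus strand: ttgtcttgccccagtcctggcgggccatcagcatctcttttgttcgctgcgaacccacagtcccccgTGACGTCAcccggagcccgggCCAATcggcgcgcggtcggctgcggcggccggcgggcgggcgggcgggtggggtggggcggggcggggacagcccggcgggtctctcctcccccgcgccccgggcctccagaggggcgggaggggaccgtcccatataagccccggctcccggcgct
THBS1, chr15:39580829-39581078, plus strand: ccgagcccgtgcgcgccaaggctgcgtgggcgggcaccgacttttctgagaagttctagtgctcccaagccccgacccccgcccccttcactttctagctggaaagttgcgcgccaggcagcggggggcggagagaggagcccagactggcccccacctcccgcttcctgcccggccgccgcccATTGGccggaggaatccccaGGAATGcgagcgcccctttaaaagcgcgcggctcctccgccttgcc
OLFML2A, chr9:124776883-124777132, plus strand: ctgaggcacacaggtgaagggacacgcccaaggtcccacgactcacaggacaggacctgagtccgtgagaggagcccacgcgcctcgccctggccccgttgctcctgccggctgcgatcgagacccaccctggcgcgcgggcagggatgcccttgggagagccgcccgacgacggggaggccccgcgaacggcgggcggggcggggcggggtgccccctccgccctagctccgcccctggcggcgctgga
In the 250 bases before the start, TGACGTCA stood in 1 of the 8 members (FN1), against 1.65% of all 35116 RefSeq promoter windows of that length. CCAAT stood in 3 of the 8 (FN1, THBS1 and the inner start of OLFML2A), against 32.0% of all windows, and GGAATG in 3 (FBN1, THBS1 and the inner start of OLFML2A), against 11.9%. OLFML2A was searched at an outer and an inner start, while the percentages are per single window. The windows of FBN1, FBLN1 and VWA1 also lay inside the gene as GENCODE draws it. TGACTCA (the AP-1 site), TATAAA and the ER stress element (which contains CCAAT) stood in 0 of the 8, against 4.2%, 10.7% and 0.074%. A match of letters is a description and says nothing of whether a factor binds there.

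Against DMSO, the 7 members open to a test gave 0 falls at 0.5 nM and 0 at 5 nM, 1 at 50 nM (FBN1) and 4 at 500 nM (FBN1, THBS1, AGRN and TGFBI), while 1 of them, FBLN1, rose at 500 nM. The test was limma on log2(normalized count + 1) over 13561 genes, with a Benjamini-Hochberg adjusted p below 0.05 as the threshold. Of all tested genes 0.922%, 1.71%, 3.71% and 10.1% fell at the 4 doses from the lowest to the highest, and 0.251%, 0.465%, 2.29% and 7.69% rose. At an unadjusted p under 0.05 (limma), AGRN, THBS1 and TGFBI were lower at 0.5 nM and AGRN at 5 nM. At 50 nM AGRN and TGFBI, besides FBN1, were lower and FBLN1 was higher, and at 500 nM HSPG2 was also higher. The share of all tested genes at this looser level was not counted, so these are given as a description. Without 0.5 nM replicate 2, the log2 differences of AGRN, THBS1 and TGFBI at 0.5 nM went from -0.16, -0.16 and -0.14 to -0.10, -0.11 and -0.09, and those of FN1 and HSPG2 turned from -0.06 and -0.18 to 0.15 and 0.06, none of them past the threshold in either fit. Run on the recovered reads, both edgeR and DESeq2 gave counts of falls among the members that were the same as these at each dose. The dose at which the genes moved differed between them, as the sections on each gene describe.

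**Figure D2:**
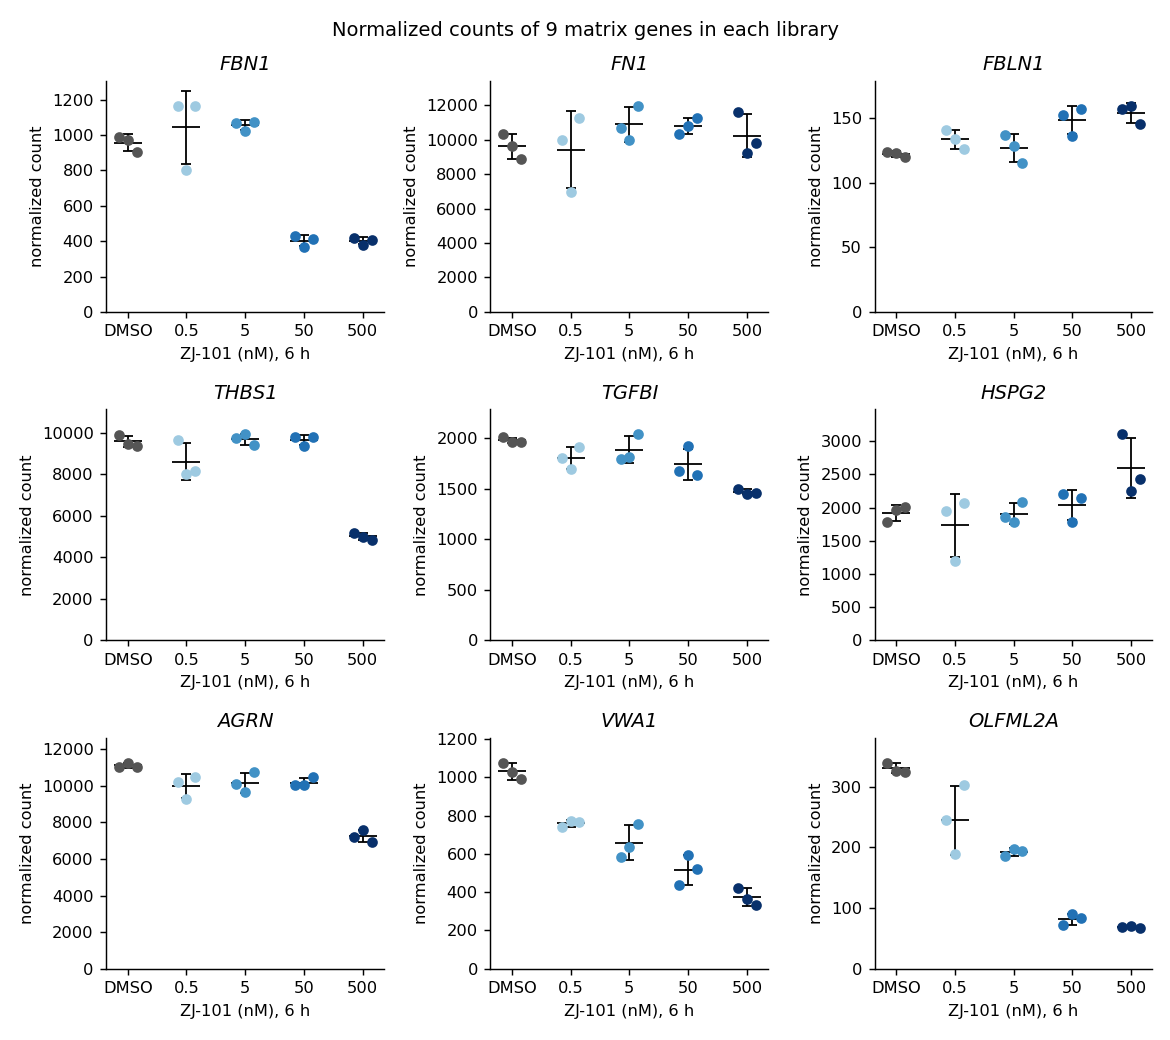
Normalized counts (vertical axes, from 0) of the 9 genes in each of 15 libraries, by dose of ZJ-101. Points are libraries and bars the mean ± SD (n = 3). FBN1 drops between 5 and 50 nM, THBS1 and AGRN between 50 and 500 nM, VWA1 and OLFML2A are lower from 0.5 nM on, and the FN1 groups overlap throughout.

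FBN1 encodes fibrillin-1, the main protein of the microfibrils that carry elastic fibres and hold latent TGF-beta. It lies on the minus strand of chromosome 15, from 48408313 to 48645721 (GRCh38), and its canonical transcript has 66 exons. FBN1 had 992, 974 and 902 normalized counts in the DMSO libraries, 1166, 804 and 1162 at 0.5 nM and 1066, 1024 and 1076 at 5 nM. At the higher doses it dropped to 427, 367 and 413 (50 nM) and 419.9, 380.3 and 409 (500 nM). All 6 libraries of the higher doses thus lay below all 9 of the others, and the 50 and 500 nM libraries overlapped each other. Of all tested genes, 13.2% at 50 nM and 19.6% at 500 nM had libraries wholly below DMSO. For 11.8% the 50 nM libraries lay below those of 5 nM. Against DMSO, limma gave a log2 fold change of -1.25 for 50 nM (standard error 0.10, adjusted p = 1.78e-07) and of -1.24 for 500 nM (standard error 0.10, adjusted p = 6.70e-08).

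The whole fall of FBN1 lay in the step from 5 to 50 nM, in which it dropped by -1.39 on the log2 scale (limma, adjusted p = 8.94e-08), and 2.39% of all tested genes fell in that step. From 50 to 500 nM the difference was 0.01, with a 95% interval of -0.21 to 0.22. At 0.5 and 5 nM FBN1 was not lower than in DMSO, with log2 fold changes of 0.11 and 0.14 (adjusted p = 0.693 and 0.620, limma). The 5 nM libraries all lay above those of DMSO, as they did for 10.5% of all tested genes. Without 0.5 nM replicate 2, FBN1 was higher at 0.5 nM than in DMSO by 0.29 (adjusted p = 0.0397, limma).

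FN1, which encodes fibronectin, did not change detectably at any dose. The gene lies on the minus strand of chromosome 2, from 215360440 to 215436073. FN1 had 10346, 9641 and 8870.1 normalized counts in DMSO, and 10003, 6955 and 11288 at 0.5 nM. At 5 nM it had 10676, 10009.6 and 11972, at 50 nM 10324, 10768 and 11259, and at 500 nM 11627, 9240.0 and 9817. The groups overlapped at every dose, and the lowest value was that of 0.5 nM replicate 2. The log2 fold change at 500 nM was 0.08, with a 95% interval of -0.18 to 0.35 (adjusted p = 0.718, limma), so the interval does not reach the falls of FBN1 or THBS1. At 50 nM it was 0.17, with an interval of -0.10 to 0.43. Splicing of the extra domains of fibronectin cannot be read from counts per gene.

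FBLN1 encodes fibulin-1, which binds fibronectin and basement membranes, and was the least abundant of the 7 by normalized count. The gene lies on the plus strand of chromosome 22, from 45502238 to 45601135. It had 124, 123 and 119.7 normalized counts in DMSO, 153, 136 and 157 at 50 nM and 157, 159.8 and 146 at 500 nM. The 6 libraries of the higher doses lay above those of DMSO. At 0.5 nM FBLN1 had 141, 134 and 126 and at 5 nM 137, 128 and 115, and of these the former lay above DMSO and the latter overlapped with it. Libraries wholly above DMSO were found for 7.43%, 10.5%, 11.6% and 18.9% of all tested genes from the lowest to the highest dose. In limma the change of FBLN1 came to 0.33 on the log2 scale at 500 nM (standard error 0.10, adjusted p = 0.0218) and to 0.28 at 50 nM (adjusted p = 0.108, limma). The call at 500 nM was lost without any 1 of the DMSO libraries or without 500 nM replicate 1 or 2 (adjusted p between 0.0517 and 0.0820, limma), and with DESeq2 (adjusted p = 0.0843).

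THBS1, the gene of thrombospondin-1, held its level up to 50 nM and fell at 500 nM. It lies on the plus strand of chromosome 15, from 39581079 to 39599466, and 7.58% of its exon bases are shared with FSIP1 and THBS1-AS1 on the opposite strand. The strand setting of the counting is not given in the sources used here. THBS1 had 9897, 9479 and 9378 normalized counts in DMSO, 9628, 8034 and 8177 at 0.5 nM and 9741, 9928 and 9411 at 5 nM. It had 9796, 9359.8 and 9784 at 50 nM, and 5191, 5000.3 and 4853 at 500 nM. The 500 nM libraries lay far below the other 12, which spanned 8034 to 9928. Libraries of 500 nM lay below those of DMSO for 19.6% of all tested genes and below those of 50 nM for 10.5%. At 500 nM limma gave THBS1 a log2 fold change of -0.93 (standard error 0.06) with an adjusted p = 7.89e-10.

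From 50 to 500 nM THBS1 fell by 0.94 on the log2 scale (adjusted p = 6.50e-09, limma), a step in which 1.80% of tested genes fell. At 50 nM its difference from DMSO was 0.01, with a 95% interval of -0.11 to 0.13. At 0.5 nM it was -0.16 (adjusted p = 0.190, limma), and only without 0.5 nM replicate 1 did this pass, at -0.24 (adjusted p = 0.0299, limma).

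TGFBI encodes the TGF-beta-induced protein, which carries a cell attachment sequence for integrins. It lies on the plus strand of chromosome 5, from 136028988 to 136063818. TGFBI had 2011, 1963 and 1966 normalized counts in DMSO, 1806, 1694 and 1912 at 0.5 nM, and 1800.2, 1818 and 2042 at 5 nM. It had 1682, 1922 and 1636 at 50 nM and 1499, 1449 and 1463 at 500 nM. The 500 nM libraries lay below the other 12, and the libraries at 5 nM overlapped with DMSO. Of all tested genes, 10.5% had 500 nM libraries below those of 50 nM alone. The share below all 12 was not counted. In limma TGFBI changed by -0.43 on the log2 scale at 500 nM (standard error 0.06, adjusted p = 5.37e-05), the smallest of the 4 falls, and -0.18 at 50 nM (adjusted p = 0.0926, limma). At 50 nM it passed without 0.5 nM replicate 2 (adjusted p = 0.0390) or 50 nM replicate 2 (adjusted p = 0.0124), both limma. The step from 50 to 500 nM, at -0.24, passed narrowly (adjusted p = 0.0428, limma) and no longer did so under 13 of 26 alternatives, among them the omission of any 1 of 11 libraries (adjusted p up to 0.261).

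HSPG2 encodes perlecan, and was the only 1 of the 7 besides FBLN1 whose 500 nM libraries all lay above DMSO. Such a position at 500 nM was held by 18.9% of all tested genes. HSPG2 lies on the minus strand of chromosome 1, from 21822244 to 21937310, has the longest transcript of the 9 (14341 bases in 97 exons), and shares 11.7% of its exon bases with LDLRAD2 on the opposite strand. It had 1778, 1963 and 2009.8 normalized counts in DMSO, 1942, 1191 and 2064 at 0.5 nM and 1851, 1787 and 2088 at 5 nM. The 50 nM libraries had 2208, 1785 and 2138, and those of 500 nM 3104, 2247 and 2423. The difference at 500 nM was 0.42 on the log2 scale (standard error 0.15) and did not pass the threshold (adjusted p = 0.0655, limma). It passed without 0.5 nM replicate 2 (adjusted p = 0.00209) or replicate 3 (adjusted p = 0.0369), and with the length trend of each library removed, at 0.35 (adjusted p = 0.00812), all limma. With only the DMSO and 500 nM groups in the fit it passed too (adjusted p = 0.00297, limma). In edgeR it passed narrowly (adjusted p = 0.0469). In all it passed under 6 of 26 alternatives. Without 500 nM replicate 1, the highest library, it was 0.29 (adjusted p = 0.283, limma).

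AGRN encodes agrin, the other proteoglycan among the members, which fell at 500 nM. The gene lies on the plus strand of chromosome 1, from 1020120 to 1056118, and a neighbour on the same strand overlaps 3.74% of the bases in its exons. AGRN had 11029.0, 11249 and 11029.1 normalized counts in DMSO. It had 10179, 9241 and 10488 at 0.5 nM, 10067, 9643 and 10729.8 at 5 nM, and 10016, 10017 and 10455 at 50 nM. At 500 nM it had 7192, 7594 and 6929. The libraries of all 4 doses lay below those of DMSO. Taken dose by dose, this held for 10.7%, 12.7%, 13.2% and 19.6% of all tested genes. The share with all 4 doses below was not counted. The differences of -0.16, -0.13 and -0.13 at 0.5, 5 and 50 nM were not past the threshold (adjusted p = 0.153, 0.256 and 0.183 in limma), and the 3 lower doses differed from each other by 0.03 at most. At 500 nM limma gave AGRN -0.62 on the log2 scale (standard error 0.05, adjusted p = 6.44e-08), and the step from 50 to 500 nM took -0.49 of it (adjusted p = 1.89e-05).

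VWA1 encodes a von Willebrand factor A domain protein of the pericellular matrix that binds perlecan. It lies on the plus strand of chromosome 1, from 1434861 to 1442882. It had 1076, 1028 and 990.2 normalized counts in DMSO, 739, 773 and 767 at 0.5 nM and 582, 634 and 758 at 5 nM. At 50 nM it had 437, 596 and 519, and at 500 nM 424, 362 and 334. Every treated library was below every DMSO library, and the libraries of neighbouring doses overlapped up to 50 nM. Taken dose by dose, libraries wholly below DMSO were found for 10.7%, 12.7%, 13.2% and 19.6% of all tested genes. The log2 difference from DMSO was -0.44 at 0.5 nM, -0.66 at 5 nM and -1.47 at 500 nM, a graded fall in which 30.0% of the change at 500 nM was already present at 0.5 nM and 68.3% at 50 nM. Since VWA1 was picked for this fall, it is given without a test.

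OLFML2A encodes an olfactomedin-like secreted protein, and had the largest fall of the 9. It lies on the plus strand of chromosome 9, from 124777133 to 124814885. It had 339, 326 and 325 normalized counts in DMSO, 244, 188 and 302 at 0.5 nM and 185, 197 and 195 at 5 nM. The 50 nM libraries had 72.0, 89.5 and 84.0, and those of 500 nM 69.3, 70.8 and 67.1. Each treated library was below each DMSO library, and the 50 nM libraries lay below those of 5 nM, as they did for 11.8% of all tested genes. The share of genes wholly below DMSO, taken dose by dose, was 10.7%, 12.7%, 13.2% and 19.6%. The log2 differences from DMSO were -0.46 (-0.28 without 0.5 nM replicate 2), -0.78, -2.00 and -2.24, so that 89.5% of the change at 500 nM was present at 50 nM. OLFML2A was picked for this fall too, and no test is given. The lowest number of recovered reads behind a value of any member was 67, for this gene.

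**Figure D3:**
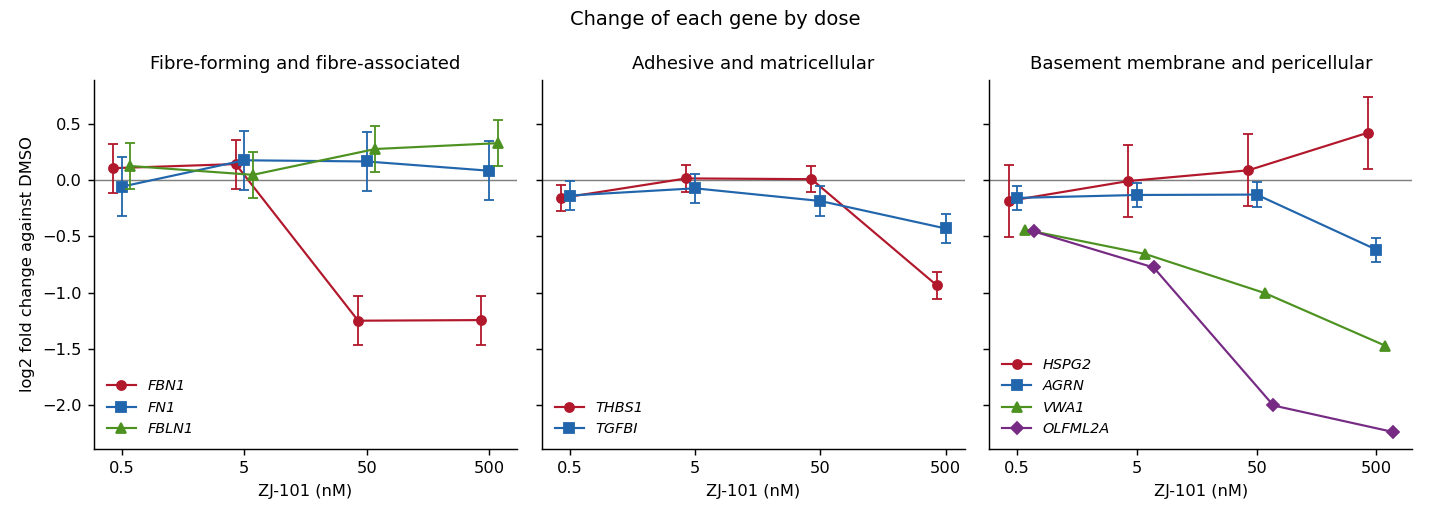
Log2 fold change against DMSO (vertical axis) at each dose of ZJ-101 (horizontal axis, evenly spaced) for the 9 genes in 3 panels by role. Bars are 95% intervals from limma for the 7 tested genes, and VWA1 and OLFML2A, picked for their falls, have none. FBN1 reaches -1.25 at 50 nM and stays there, THBS1 stays near 0 up to 50 nM and reaches -0.93 at 500 nM, and FN1 stays near 0.

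The members that were lower at 500 nM differed in the share of their own change that was present at 50 nM. On the log2 scale it was 100.4% for FBN1, 89.5% for OLFML2A, 68.3% for VWA1, 43.0% for TGFBI, 20.7% for AGRN and -1.0% for THBS1. FBLN1, which rose, had 84.2%, and HSPG2, whose rise at 500 nM did not pass, had 20.8%. FN1 did not change detectably, and its share is not given. All doses were compared with the same 3 DMSO libraries. The difference between 50 and 500 nM does not use them, but its test takes the spread from all 15 libraries, DMSO included. That step was passed by THBS1, AGRN and TGFBI and not by FBN1. TGFBI no longer passed it without any 1 of the DMSO libraries (adjusted p between 0.0613 and 0.0641, limma).

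The genes with the most similar profile were sought for each member as the smallest root mean square difference of the 4 log2 fold changes, over 11054 other genes, those averaging 50 normalized counts or more. For FBN1 they were SEMA3A (0.12) and ID1 (0.14), whose log2 fold changes at 50 nM were -1.13 and -1.26. For THBS1 they were CSPG4 (0.12) and LAMB1 (0.12), and LAMB1 was at 0.07 at 50 nM and -1.06 at 500 nM. AGRN had FKBP9 and ZIC2 (0.04 each), and TGFBI had LZTFL1 (0.01) and SCARB2 (0.02). For VWA1 the closest were CDH11 (0.09) and ANGPTL2 (0.11). For OLFML2A the closest genes were MATN2 at 0.34 and CHPF at 0.39, farther off than for the other members. The measure is in log2 units and OLFML2A was picked for a large fall. This distance therefore cannot show whether the shape of its profile is unusual. The closest to the other 3 were ATAD3B and CGAS for FBLN1 (0.01 and 0.02), AC006504.5 and CNOT3 for FN1 (0.03 each), and SLC23A2 and CCRL2 for HSPG2 (0.04 each).

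Other glycoproteins of the matrix fell far more often than they rose. Of 47 tested genes of this kind that are not members, 27 fell and 1 rose at 500 nM, with a median log2 fold change of -0.35, against 10.1% falling, 7.69% rising and a median of 0.00 over all tested genes. At 50 nM 13 fell and 0 rose, at 5 nM 5 fell and 1 rose, and at 0.5 nM 4 fell and 1 rose. MATN2, a matrilin of filamentous networks, had 345 ± 8.40 normalized counts in DMSO and 109 ± 10.4 at 500 nM (SD, n = 3 in each group). Its fall was -1.66 on the log2 scale (adjusted p = 1.52e-10, limma), and -1.65 had been reached at 50 nM. LTBP1, which binds latent TGF-beta to fibrillin microfibrils, went from 853 ± 4.95 normalized counts in DMSO to 273.0 ± 27.0 at 500 nM, and its log2 fold changes were -0.47 at 50 nM and -1.65 at 500 nM (adjusted p = 0.00483 and 6.44e-10, limma). The other members of its family, named after their values were seen, also fell at 500 nM, LTBP2 by -0.66, LTBP3 by -0.55 and LTBP4 by -0.47. RELN, at 26.8 ± 13.5 and 46.8 ± 2.41 normalized counts, was the gene that rose (0.92, adjusted p = 0.0345, limma), and without DMSO replicate 2 it did not pass, at 0.45 (adjusted p = 0.200), nor without any 1 of the 500 nM libraries (adjusted p up to 0.100), both limma.

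A list of proteoglycans of the matrix and the cell surface left out HSPG2 and AGRN. Of its 12 tested genes, 8 fell and 0 rose at 500 nM (median -0.51), and 5 fell at 50 nM. Among those 5 was HAPLN3, which encodes a link protein and not a proteoglycan. SDC3, a syndecan, had 2199 ± 19.4 normalized counts in DMSO and 1188 ± 33.2 at 500 nM. It was at -0.89 on the log2 scale there (adjusted p = 4.45e-09, limma) and already at -0.93 at 50 nM. CSPG4, a membrane proteoglycan with chondroitin sulfate, had -0.89 at 500 nM (adjusted p = 1.35e-06, limma) and -0.22 at 50 nM, which did not pass.

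Among 14 tested genes of cell surface receptors for these proteins, 8 fell and 1 rose at 500 nM (median -0.30). The 14 include CALR, whose protein is mainly a chaperone of the ER. ITGA5 and ITGB3, integrin chains that bind fibronectin, fell by -1.05 and -0.93 on the log2 scale (for ITGB3 adjusted p = 4.58e-04, limma). FN1 itself did not fall beside them. The study names ITGA5, ITGAV and ITGB5, all in this list, as lower from data that include these libraries. ITGA5 is therefore given with no p-value, and the count of falls is not independent of that naming. ITGA3 rose by 0.14 (adjusted p = 0.0425, limma), with 11112 ± 113 normalized counts in DMSO and 12268 ± 335 at 500 nM, and no longer passed under 11 alternatives, among them the omission of any 1 DMSO library (adjusted p up to 0.121, limma).

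A list of genes for the maturation and assembly of the matrix held mostly enzymes, with the tensins TNS1, TNS2 and TNS3 and ADAMTS-like proteins among the others. Of its 24 tested genes, 15 fell and 1 rose at 500 nM (median -0.34), and 10 fell and 0 rose at 50 nM. PCSK6, a protease of the secretory pathway, dropped from 299 ± 29.1 normalized counts to 147 ± 3.91, or by -1.01 on the log2 scale (limma, adjusted p = 1.73e-07). LOXL1, a crosslinking oxidase of elastic fibres, had -0.96 (adjusted p = 1.87e-09, limma). TGM2, a transglutaminase that crosslinks fibronectin, rose by 0.22 (adjusted p = 0.00225, limma) after being lower at 0.5 and 5 nM, at -0.25 and -0.20 (adjusted p = 0.0119 and 0.0223, limma). The sugar transferases of thrombospondin repeats, POFUT2 and B3GLCT, and those of EGF-like repeats as in fibrillin, POGLUT2 and POGLUT3, were named after their values were seen. At 500 nM they fell by -0.72, -0.70, -0.58 and -0.62 (adjusted p of 0.00656 at most, limma), and POFUT2, B3GLCT and POGLUT3 had already fallen at 50 nM, when THBS1 had not.

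Of 21 tested genes of TGF-beta signalling, 13 fell and 1 rose at 500 nM (median -0.23). The list mixes ligands, receptors and SMADs with inhibitors of the pathway, so these counts give no direction for its activity. The inhibitory SMADs SMAD7 and SMAD6 fell by -1.32 and -0.88 (adjusted p = 3.21e-09 and 6.89e-08, limma). TGFBI, named for its induction by TGF-beta, is described above and was not counted in this list. Without DMSO replicate 3, 9 genes of this list passed in place of 14.

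**Figure D4:**
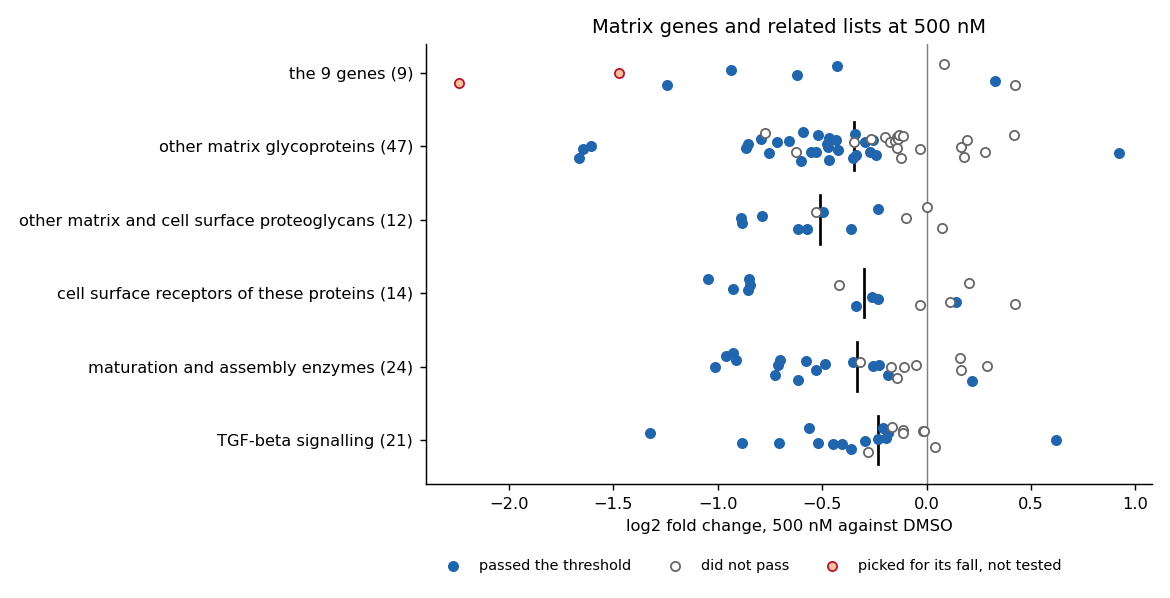
Log2 fold change at 500 nM against DMSO (horizontal axis) of each tested gene of 5 lists and of the 9 matrix genes, with the number of genes in parentheses. Filled blue points passed the threshold, open points did not, pale red points are VWA1 and OLFML2A, and black bars are list medians, which lie between -0.51 and -0.23.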

How the data were processed

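The libraries were poly-A RNA, sequenced as paired reads of 150 bases, which the authors aligned to hg38 with HISAT2, counted per gene with htseq-count and divided by a DESeq2 size factor per library. The deposited signal values are these normalized counts; versions and the strand setting are not given in the sources used here. 1 line without a gene was left out. Values are whole multiples of 1 step per library, so reads were recovered (100.0% whole within 0.001), and 1 read was worth 0.883 to 1.09. No pair of replicates was a duplicate (chi-square per degree of freedom of at least 2.04). limma tested log2(normalized count + 1), which understates changes of low genes, with a variance trend, all 5 groups in 1 fit and Benjamini-Hochberg adjustment over 13561 genes with a mean of at least 10. It was tested on simulated data first. p-values measure the spread between these dishes.

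The members and lists were chosen with earlier results of these data known. Named genes are the 9 members, up to 2 falls and 2 rises per list at 500 nM, 2 similar profiles per member and markers. 1 gene that this rule names is not reported here. The 5 lists held 188 genes from general knowledge, 1 of them not found by symbol. SDC4 was counted in both the proteoglycan and the receptor list, and TGFBR3 in both the proteoglycan and the TGF-beta list. Alternatives were other pseudocounts, filters, scalings and tests, a replicate block, the compared groups alone and each library left out; removal of length trends was chosen after seeing the data. Positions and lengths are from GENCODE 44 on GRCh38. Fits used limma 3.58.1 in R 4.3.3, with DESeq2 1.42.0 and edgeR 4.0.16 as alternatives, and Python 3.11.15 for the rest.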

Additional observations from a re-analysis of the deposited data

How the results depend on the processing

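Among the 7 tested members, the falls of FBN1, THBS1, AGRN and TGFBI at 500 nM and of FBN1 at 50 nM kept direction and call under each of 26 alternatives. The count of members that fell was 4 throughout at 500 nM, and 0 to 1 at 0.5 nM and 1 to 2 at 50 nM when a library was left out. At 50 nM it was 3 with only the compared groups. At 50 and 500 nM against DMSO, 2 differences of members that did not pass turned direction, that of FN1 at 500 nM without 500 nM replicate 1 (-0.0115; up to 0.154 without another library), and that of THBS1 at 50 nM without DMSO replicate 3 (-0.0061), 50 nM replicate 1 (-0.0019) or 50 nM replicate 3 (-0.001), and up to 0.0327 otherwise. Without 0.5 nM replicate 2, differences that did not pass also turned at 0.5 nM against DMSO (FN1 to 0.15, HSPG2 to 0.06) and for 5 against 0.5 nM (FBN1 to -0.14, AGRN to -0.03, HSPG2 to -0.07). The cause was not tested.

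The number of all genes called, the background above, rested on single libraries at the lower doses. Leaving out a library gave 19 to 391 genes at 0.5 nM (159 with all), 113 to 623 at 5 nM (295), 560 to 1276 at 50 nM (814) and 1795 to 3097 at 500 nM (2409). Between neighbouring doses it gave 7 to 25 for 5 against 0.5 nM (16), 424 to 1129 for 50 against 5 nM (679) and 139 to 630 for 500 against 50 nM (309). Omission of 0.5 nM replicate 2 gave the highest count in each but the first. With only the compared groups 21 genes passed at 0.5 nM, 846 at 5 nM and 4 for 5 against 0.5 nM, and DESeq2 gave 30 there. With length trends removed, 465 passed at 5 nM, 25 for 5 against 0.5 nM and 480 for 500 against 50 nM. The TGF-beta list gave 9 to 17 calls when a library was left out.

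Same-numbered libraries had only weak correlations of their deviations, between -0.085 and 0.096, yet 9 of 15 libraries correlated best with their own number. Whether replicate numbers pair the libraries was not tested. With the replicate number as a block 2506 genes passed at 500 nM, and HSPG2 passed there (adjusted p = 0.0203, limma). Counts near 67 reads, as for OLFML2A, limit precision by counting error alone.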
